A study of Mus musculus with 2 samples.

Results

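Stfa1, Stfa2l1, BC100530 and Gm5483 are stefin A genes of the mouse, and their transcripts were followed here cell by cell in bone marrow. They were picked by symbol, as 4 of the 13211 genes that the count tables list, and each of the 4 was listed for both libraries. Their level in neutrophils and the difference between the genotypes were known when they were picked, so both are given as descriptions. The marrow came from Col1a1fspKO mice (Fsp1-Cre;Col1a1flox/flox) and from WT littermates that are Cre-negative and carry the same Col1a1flox/flox alleles. In the former, the Fsp1 (S100a4) promoter drives Cre, which deletes Col1a1, the gene of a type I collagen chain, in cells that use this promoter. Femur and tibia marrow of 2 mice, 2 months old, was pooled for each genotype, sorted for live cells and made into 1 library by 10x Genomics 3′ v2 single-cell RNA-sequencing (sc-RNA-seq), which counts each captured mRNA molecule once by its unique molecular identifier (UMI).

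Stefins are small inhibitors of the cystatin family that stay mostly inside the cell. They bind papain-like cysteine proteases, such as cathepsins B, H, L and S, tightly and reversibly, and so block them. The mouse carries a row of stefin A gene copies on a single chromosome where the human genome has a single CSTA gene, and mouse stefin A transcripts are known from neutrophils and their precursors. Neutrophils pass in the marrow from dividing preneutrophils through immature to mature cells, with granule genes such as Ltf and Camp on early and Retnlg, Cxcr2 and Il1f9 on late.

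In GRCm38, the build named in the submitters' processing notes (as mm10), GENCODE M21 places 10 genes of the locus on chromosome 16 between 36119946 and 36455392. The 4 members lie within it as protein-coding genes of 3 exons each. Stfa2l1 runs from 36156811 to 36161953 and Gm5483 (Cstdc4 in RefSeq) from 36184212 to 36188111, both on the plus strand. Stfa1 runs from 36276951 to 36285373 on the plus strand, and BC100530 (Cstdc5 in RefSeq) from 36359382 to 36367748 on the minus strand. Stfa1 and BC100530 are the closest pair, with 97.9% identity over 291 aligned coding bases, and the other pairs of members range from 76.6% to 81.1%. Outside the members, Stfa2l1 is close to Stfa2 (96.4%) and Gm5483 to 2010005H15Rik (96.9%).

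The members share more than coding sequence, so their promoters are shown. The 150 bases before the RefSeq start of Gm5483 and of Stfa2l1 (RefSeq, GRCm38.p6), which overlap no annotated transcript, follow 5′ to 3′, with AGGAGGAG and TTTAAAA in capitals.
Gm5483, chr16:36184062-36184211, plus strand: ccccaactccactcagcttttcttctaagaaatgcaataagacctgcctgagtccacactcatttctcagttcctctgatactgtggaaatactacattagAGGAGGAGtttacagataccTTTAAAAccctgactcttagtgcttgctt
Stfa2l1, chr16:36156661-36156810, plus strand: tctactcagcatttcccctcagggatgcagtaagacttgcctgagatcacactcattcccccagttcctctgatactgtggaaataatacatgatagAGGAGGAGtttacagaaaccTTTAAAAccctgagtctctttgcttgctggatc

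The stretch that holds both capital runs was present before the RefSeq start of all 4 members. By the GENCODE positions, however, it lies inside the annotated genes of Stfa1 and BC100530. It is printed for each member, with the same letters in capitals, because it is what their windows before the RefSeq start have most clearly in common.
Gm5483, chr16:36184163-36184191, plus strand: AGGAGGAGtttacagataccTTTAAAAcc
BC100530, chr16:36367571-36367599, minus strand: AGGAGGAGtttacagataccTTTAAAAcc
Stfa2l1, chr16:36156758-36156786, plus strand: AGGAGGAGtttacagaaaccTTTAAAAcc
Stfa1, chr16:36277098-36277126, plus strand: AGGAGGAGctttcggataccTTTAAAAcc

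Of the 29 bases, BC100530 had 29 as in Gm5483, Stfa2l1 had 28 and Stfa1 had 26. The stretch is not particular to the members. It also lay before the RefSeq start of their locus neighbours Stfa2, with 27 bases as in Gm5483, and Stfa3, with 24. For Stfa2 it too lies inside the GENCODE gene. The stretch began 49 bases before the RefSeq start in Gm5483, 53 in Stfa2l1, 50 in Stfa1 and 29 in BC100530, and annotated starts of Stfa1 and BC100530 differ between RefSeq and GENCODE. Both letter runs were chosen after the sequences had been read. The 150 bases before the RefSeq start were searched on either strand for 27025 promoters. TTTAAAA was found in 4.15% of these windows, AGGAGGAG in 3.49% and both in 20 (0.0740%), of which 6 belong to this locus. A match of letters is a description and no evidence that a factor binds there.

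The Col1a1fspKO library held 1309 cells with 8647722 UMIs and the WT library 1169 cells with 8624469 UMIs, and 2 cell barcodes occur in both. Median depth was 4954 UMIs per cell for Col1a1fspKO and 5534 for WT, and the lowest 2540 and 2909. Col1a1, the deleted gene, had 3 UMIs in Col1a1fspKO and was not listed for WT, too few to check the deletion. Cells were clustered without any stefin A gene, and clusters were named from marker genes. The class called mature neutrophil-like was cluster 7, led by Retnlg, Il1f9, Asprv1, Prok2 and Clec4d. It held 110 Col1a1fspKO cells (8.40% of the library, 95% interval 6.96 to 10.0) and 39 WT cells (3.34%, 2.38 to 4.53). Its 10 leading genes held 3 markers of mature and 3 of maturing neutrophils. All intervals, exact Poisson for UMIs and exact binomial (Clopper-Pearson) for shares, cover counting error only, and with 1 pooled library per genotype there was no replicate and no test between genotypes.

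Stefin A transcripts were found mainly in neutrophils, and among these most of all in the mature class. Of all member UMIs, 90.3% in Col1a1fspKO and 80.7% in WT lay in the neutrophil classes. The summed level of the 4 members, in counts per 1000000 UMIs of the class (CPM), was 2433 (2272 to 2602) in mature neutrophil-like cells of Col1a1fspKO and 870 (721 to 1041) in those of WT. The next class in both libraries was maturing neutrophil-like, at 241 CPM (202 to 284) in Col1a1fspKO against 116 (84.9 to 154) for WT. The summed level in Col1a1fspKO then went down through immature neutrophil-like cells (93.7 CPM, 72.8 to 119) to B cells-like cells (45.4 CPM, 35.6 to 57.0) and preneutrophil-like cells (36.8 CPM, 25.9 to 50.8). The place of the B cells-like class rested on 2 cells with neutrophil transcripts, which held 62 of its 74 member UMIs. In WT, preneutrophil-like cells at 79.5 CPM (64.6 to 96.8) came next after the maturing class, and their interval overlapped that of the maturing class.

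**Figure D1:**
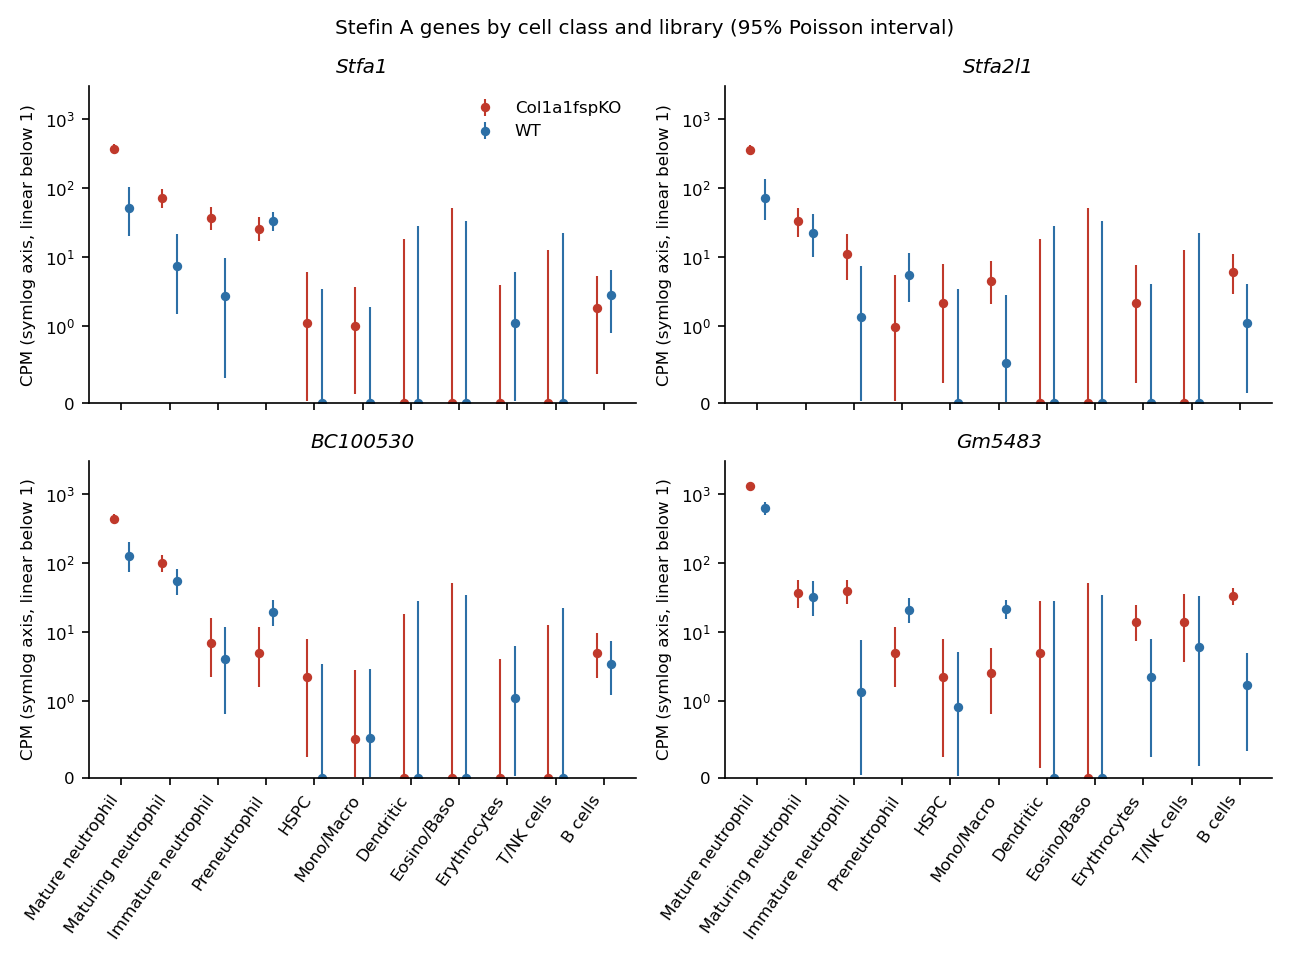
Level of each member in CPM (axis logarithmic above 1 CPM and linear below) in 11 cell classes, 1 panel per gene, with Col1a1fspKO in red, WT in blue and 95% Poisson intervals as bars. The mature neutrophil-like class has the highest value in every panel and library, such as 1273 CPM against 621 CPM for Gm5483.

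Each member was highest in the mature class in both libraries, but the 4 did not share the rest of the order. In Col1a1fspKO the mature level stood clear of the next class for all 4, with no overlap of the intervals. In WT this held for Gm5483, whose mature level of 621 CPM (496 to 768) was followed by 32.0 CPM (17.0 to 54.7) in the maturing class. For Stfa1, Stfa2l1 and BC100530 in WT the intervals of the mature class and the next class overlapped. WT Stfa1 was 51.2 CPM (20.6 to 105) in mature and 33.7 CPM (24.3 to 45.6) in preneutrophil-like cells.

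In WT the members also had UMIs in an early class, with the largest share for Stfa1. In preneutrophil-like cells, the class that carries Fcnb and Elane, lay 70.0% of the 60 WT UMIs of Stfa1 (56.8 to 81.2), 32.4% of those of BC100530 (22.0 to 44.3), 23.3% of Stfa2l1 (9.93 to 42.3) and 26 of the 173 UMIs of Gm5483. The mature class held 11.7% of WT Stfa1 and 23.0% of WT BC100530 UMIs. In Col1a1fspKO, 56.1% of the 230 Stfa1 UMIs lay in the mature class. The positive share of preneutrophil-like cells was similar in both libraries. Stfa1 was found in 11 of 132 WT preneutrophil-like cells with 42 UMIs and in 8 of 98 Col1a1fspKO cells with 26 UMIs, so that 8.33% and 8.16% of cells were positive at medians of 8692 and 8682.5 UMIs per cell. The largest counts of Stfa1 in this class were 14 in WT and 8 in Col1a1fspKO. The preneutrophil-like cluster had as many markers of immature neutrophils as of its own among its leading genes, 4 of each.

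In preneutrophil-like cells the other members had fewer UMIs in Col1a1fspKO than in WT. Gm5483 had 26 UMIs in WT and 5 in Col1a1fspKO, and 23 of the 26 lay in a single WT cell. That cell had 61 UMIs of the late gene Retnlg, against a WT class median of 2, so its Gm5483 is not read as early. BC100530 had 24 UMIs in WT and 5 in Col1a1fspKO. Stfa2l1 had 7 and 1. Summed over the members, the preneutrophil-like level was 36.8 CPM in Col1a1fspKO and 79.5 CPM in WT, a ratio of 0.463 (0.309 to 0.682). This is the opposite direction to the mature class, but the WT sum still holds the 23 Gm5483 UMIs of the cell set aside above. Of the 99 WT UMIs in the sum, 88 lay in 8 cells.

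Between these stages the Col1a1fspKO cells held more. In immature neutrophil-like cells, 158 in each library, there were 68 member UMIs in Col1a1fspKO against 7 in WT, a ratio of 9.89 (4.55 to 25.5). Stfa1 had 27 UMIs in 7 Col1a1fspKO cells and 2 UMIs in 2 WT cells. Gm5483 had 28 and 1, of which 24 lay in 1 Col1a1fspKO cell. That cell had 8924 UMIs, against a class median of 4506.5, and 100 UMIs of the late gene Retnlg. Its Gm5483 is thus not read as immature either, but the ratio of 9.89 still includes it. Any member was found in 12.7% of Col1a1fspKO and 3.80% of WT immature cells, or in 8.86% and 1.27% after all cells had been thinned to 2500 UMIs. In maturing neutrophil-like cells the members had 139 and 47 UMIs, a ratio of 2.08 (1.49 to 2.96), of which BC100530 had 57 and 22. Stfa1 had 42 UMIs in Col1a1fspKO, 25 of them in 1 cell, and 3 in WT.

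In mature neutrophil-like cells each member was higher in Col1a1fspKO than in WT. For Stfa1, 129 UMIs were counted in Col1a1fspKO and 7 in WT, or 368 CPM (308 to 438) against 51.2 CPM (20.6 to 105), and the ratio was 7.20 (3.40 to 18.3). Stfa2l1 had 125 and 10 UMIs, or 357 CPM (297 to 425) against 73.1 CPM (35.1 to 134), with a ratio of 4.88 (2.57 to 10.4). For these genes and for BC100530 the Poisson intervals of the libraries did not overlap. BC100530 had 152 and 17 UMIs, or 434 CPM (368 to 509) against 124 CPM (72.4 to 199), with a ratio of 3.49 (2.11 to 6.15). Gm5483 had 446 and 85 UMIs, or 1273 CPM (1158 to 1397) against 621 CPM (496 to 768), with a ratio of 2.05 (1.62 to 2.62). The ratio of Gm5483 was close to the 2-fold limit used for calls, its intervals did not overlap either, and 1 WT cell held 54 of its 85 WT UMIs. Without the top cell of each library its log2 ratio was 2.25 in place of 1.04.

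Of the 791 genes with at least 50 UMIs in the mature class over both libraries, 13 (1.64%) were at least 2-fold higher in Col1a1fspKO, and all 4 members, each of which reached 50 UMIs, were among them. The median log2 ratio was 2.05 over the members and 0.02 over the 791 genes. Because the difference was known when the members were picked, nothing is read from this count. The ratios of BC100530 and Gm5483 were under 2-fold under 2 of 10 and 4 of 11 other processing settings tried. The ratio of Stfa1 rested on few WT molecules: 1 WT cell held 6 of the 7, and without the top cell of each library the log2 ratio was 4.70 in place of 2.85.

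Stfa1 and BC100530 are so alike that reads could have been divided between them by the authors' counting, or left uncounted. In windows of 100 bases, somewhat shorter than the sequenced read, over the last 500 bases of the annotated transcripts, 36 of 593 windows of Stfa1 (6.07%), 75 of 671 of BC100530 (11.2%), 35 of 618 of Gm5483 (5.66%) and 0 of 320 of Stfa2l1 were identical to a window of another gene of the locus. Summed as a pair, Stfa1 and BC100530 had a ratio of 4.57 (3.01 to 7.26) in the mature class.

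A positive mature cell held 19.4 member UMIs in Col1a1fspKO and 8.5 in WT on average, while the share of positive cells was closer. These means have no interval, and a single WT cell held 54 of the 119 WT UMIs. The share of rich cells differed too. At least 10 member UMIs were found in 20 of 110 Col1a1fspKO cells (18.2%, 11.5 to 26.7) and 3 of 39 WT cells (7.69%, 1.62 to 20.9). At least 1 member UMI was found in 44 of 110 mature Col1a1fspKO cells (40.0%, 30.8 to 49.8) and in 14 of 39 mature WT cells (35.9%, 21.2 to 52.8), at medians of 2989 and 3335 UMIs per cell. The difference of 4.10 percentage points had an interval from -13.8 to 20.2 (Newcombe), and after thinning every cell to 2500 UMIs it was 9.81 points (-7.72 to 24.3), from 35.5% and 25.6%. In B cells-like cells, which should lack these genes, 4.84% of Col1a1fspKO and 3.15% of WT cells had a member UMI at medians of 4326 and 5514 UMIs, or 2.42% and 0.901% after thinning. Free RNA can give a cell such UMIs, and its part in any class was not tested. The B cells-like class also held cells with neutrophil transcripts, so its shares are no measure of free RNA. The mature class had the larger share in both libraries.

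Per positive mature cell, Stfa1 had 14.3 UMIs in Col1a1fspKO and 3.5 in WT, with 9 and 2 positive cells. BC100530 had 16.9 and 5.67 UMIs, with 9 and 3 positive cells. Gm5483 had 20.3 and 14.2 UMIs, with 22 and 6 positive cells. For these 3 genes the share of positive cells differed by under 5 percentage points, with intervals that include 0. Stfa2l1 had 5.43 and 2.5 UMIs per positive cell, and its share was 20.9% (23 cells) in Col1a1fspKO and 10.3% (4 cells) in WT. This difference of 10.7 points had an interval from -4.19 to 21.2, and after thinning, with shares of 19.1% and 5.13%, it was 14.0 points (0.647 to 23.1), an interval over cells of 1 library each that covers no spread between mice.

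Within the mature class the transcripts were patchy. In Col1a1fspKO the 9 cells positive for Stfa1 held 61, 22, 18, 14, 8, 3, 1, 1 and 1 UMIs, and all other cells held none. In WT the 2 positive cells held 6 and 1. BC100530 was held by 9 Col1a1fspKO cells with 47, 34, 19, 19, 15, 14, 2, 1 and 1 UMIs and by 3 WT cells with 13, 3 and 1. In both genes a few Col1a1fspKO cells carried 14 or more molecules beside many without any. Gm5483 ranged from 1 to 64 UMIs over its 22 positive Col1a1fspKO cells, and its 6 positive WT cells held 54, 21, 5, 2, 2 and 1. Stfa2l1 was the most even, with 17 UMIs at most over 23 positive Col1a1fspKO cells and 4, 3, 2 and 1 in WT.

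**Figure D2:**
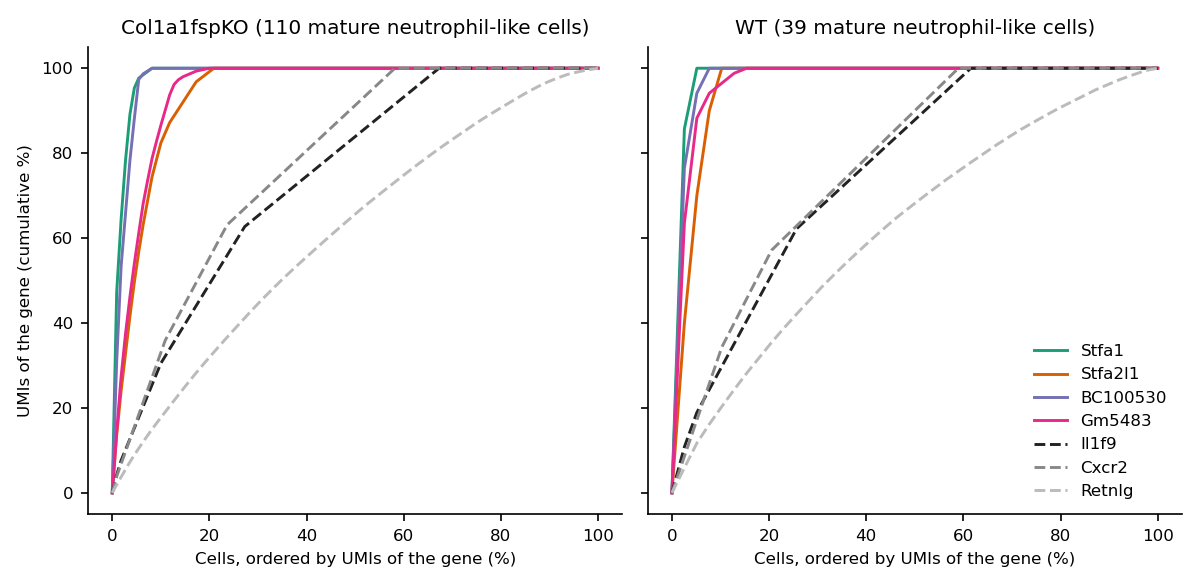
Cumulative percent of a gene's UMIs (y axis) over mature neutrophil-like cells ordered from most to fewest UMIs of that gene (x axis, percent of cells), for the 4 members (solid) and for Il1f9, Cxcr2 and Retnlg (dashed), 1 panel per library. In Col1a1fspKO the 5 top cells held 95.3% of Stfa1 UMIs, 88.2% of BC100530, 54.0% of Gm5483 and 49.6% of Stfa2l1, against 15.3% for Il1f9 and 15.5% for Cxcr2.

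This spread was far from that of other genes of like abundance. Il1f9, the gene of the cytokine interleukin-36 gamma, had 118 UMIs in mature Col1a1fspKO cells, near the 129 of Stfa1, and was found in 67.3% of cells against 8.18%. Among the genes whose total was within 1.3-fold of a member's in that library, 0 of 132 for Stfa1, 0 of 139 for Stfa2l1, 0 of 105 for BC100530 and 0 of 35 for Gm5483 were found in fewer cells. The lowest share among them was 34.5% for the Stfa1 and Stfa2l1 sets, 54.5% for the BC100530 set and 52.7% for the Gm5483 set. In WT, where Gm5483 alone had enough UMIs for this comparison, it was found in 15.4% of cells and 0 of 77 genes were lower. The variance over the mean of UMIs per cell in Col1a1fspKO was 36.4 for Stfa1, 33.5 for Gm5483, 28.6 for BC100530 and 8.05 for Stfa2l1, ranks 4, 5, 7 and 13 of 609 genes. Cxcr2, the chemokine receptor of late neutrophils, had 1.10. Abundant genes found in 100% of these cells also ranked high: S100a8 (31.7, rank 6), Retnlg (24.0, rank 8) and S100a9 (22.5, rank 9). A high rank alone is thus no sign of patchiness.

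Many positive cells held a single member. Of the mature Col1a1fspKO cells, 66 held none, 31 held 1 member, 7 held 2 and 6 held 3, and in WT the numbers were 25, 13, 1 and 0. No cell of either library held all 4. Of the 24 mature Col1a1fspKO cells with at least 5 member UMIs, which held 95.9% of the member UMIs of the class, 12 held a single member, and of 6 such WT cells 5 did. Stfa1 and BC100530, the pair most alike in sequence, were each found in 9 mature Col1a1fspKO cells and never in the same one. Over all cells 4 Col1a1fspKO and 5 WT cells held both. Stfa2l1 and Gm5483 met more often, in 10 mature Col1a1fspKO cells that held 79.1% of Gm5483 and 60.0% of Stfa2l1 UMIs of the class. These genes also had more positive cells, 23 and 22. The overlap that the numbers of positive cells alone would give was not computed, so neither exclusion nor joint use is read from these counts.

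**Figure D3:**
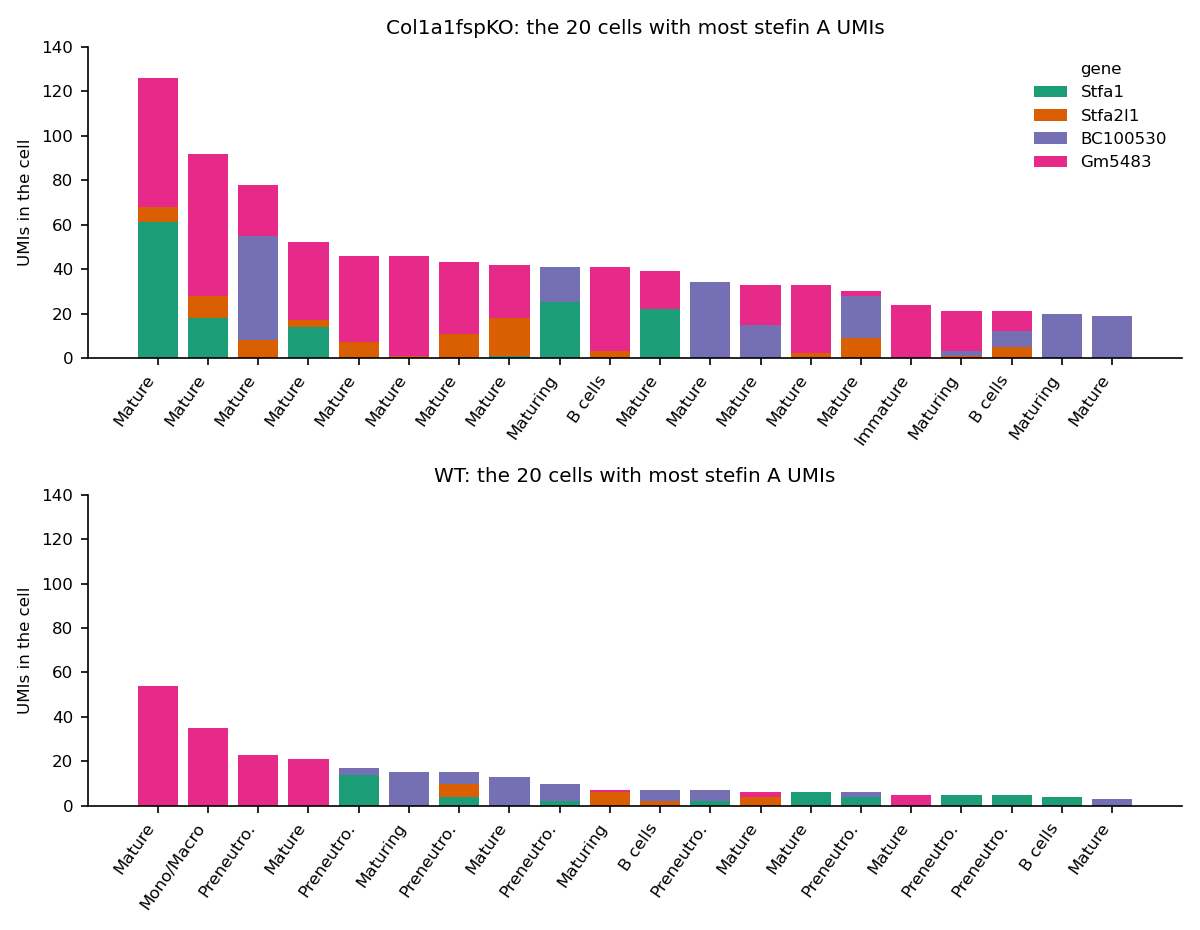
UMIs of each member (stacked colours) in the 20 cells of each library with most member UMIs, with the class of each cell on the x axis. The Col1a1fspKO cells reach 126 UMIs and 14 of the 20 are mature neutrophil-like, while the WT cells reach 54 UMIs with 7 mature and 8 preneutrophil-like, and most bars are of 1 or 2 colours.

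The richest cell was a mature Col1a1fspKO cell with 61 UMIs of Stfa1, 7 of Stfa2l1 and 58 of Gm5483, so that 4.21% of its 2994 UMIs were of members. The next had 18 of Stfa1, 10 of Stfa2l1 and 64 of Gm5483, and one more had 47 of BC100530, 8 of Stfa2l1 and 23 of Gm5483. The WT cell with most had 54 UMIs, all of Gm5483. The mix of the members differed with the library: Gm5483 made up 52.3% of mature member UMIs in Col1a1fspKO and 71.4% in WT, and most of the latter came from that cell and another with 21.

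Many of the rich cells were shallow. The WT table has no cell under 2909 UMIs, and 45 of the 110 mature Col1a1fspKO cells (40.9%) lay below that count and held 358 of the 852 member UMIs of the class (42.0%). Over all cells, 155 Col1a1fspKO cells (11.8%) lay below it and held 393 of 1214 member UMIs (32.4%). Over all cells the positive share was 16.1% below this count and 10.2% above it, and in the mature class 37.8% and 41.5%. With only cells of at least 2909 UMIs clustered in both libraries, the log2 ratio of the summed members was 1.29 in place of 1.48 in the mature class and 1.35 in place of 1.85 over all cells.

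Over all cells, without any use of classes, all 4 members were at least 2-fold higher in Col1a1fspKO, beside 0.648% of 9725 genes. Stfa2l1 had 176 UMIs in Col1a1fspKO against 30 in WT, a ratio of CPM of 5.85 (3.96 to 8.93). Stfa1 had 230 and 60 UMIs and a ratio of 3.82 (2.87 to 5.17). These library-wide values mix the level per cell with the number of mature cells, of which Col1a1fspKO had the larger share. Gm5483 had 578 and 173 UMIs and a ratio of 3.33 (2.81 to 3.97), and BC100530 had 230 and 74 and a ratio of 3.10 (2.38 to 4.08). Without the mature class, the summed level was 43.6 CPM in Col1a1fspKO and 25.7 CPM in WT, a log2 ratio of 0.76, and 1 of the 4 members, Stfa2l1, was at least 2-fold higher, beside 0.558% of genes.

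**Figure D4:**
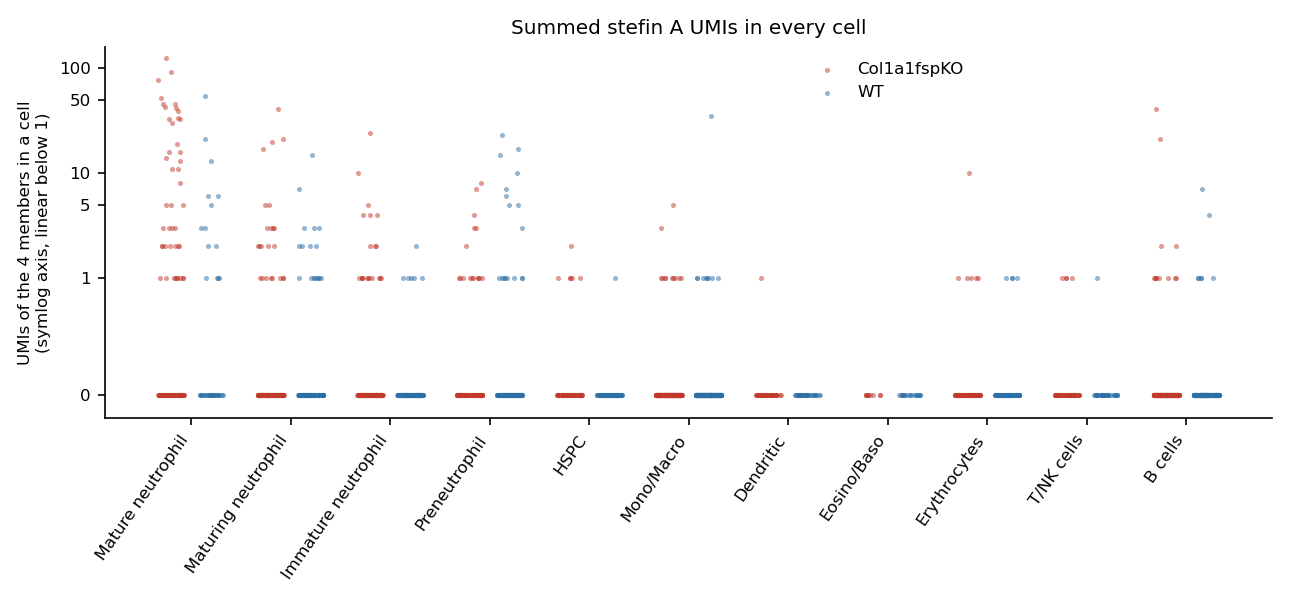
UMIs of the 4 members summed in each of the 2478 cells (y axis logarithmic above 1 and linear below), by cell class, with Col1a1fspKO in red and WT in blue and points spread sideways at random. Most cells of every class are at 0, and cells above 50 UMIs are found in the mature neutrophil-like class alone, 4 in Col1a1fspKO and 1 in WT.

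The libraries also differed among neutrophils of like Retnlg level, a late gene that played no part in choosing the members. Neutrophil-like cells of both libraries were divided into 5 equal bins of Retnlg CPM. In the highest bin, with 133 Col1a1fspKO and 59 WT cells, Stfa1 had 132 and 7 UMIs, a ratio of 9.04 (4.27 to 22.9), and Stfa2l1 had 135 and 13, a ratio of 4.98 (2.82 to 9.59). Gm5483 had 467 and 93 UMIs there, a ratio of 2.41 (1.92 to 3.04), and BC100530 168 and 34, a ratio of 2.37 (1.63 to 3.53). Retnlg itself was still not equal in this bin, 42941 CPM in Col1a1fspKO against 38198 CPM in WT, and its part in these ratios was not tested.

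**Figure D5:**
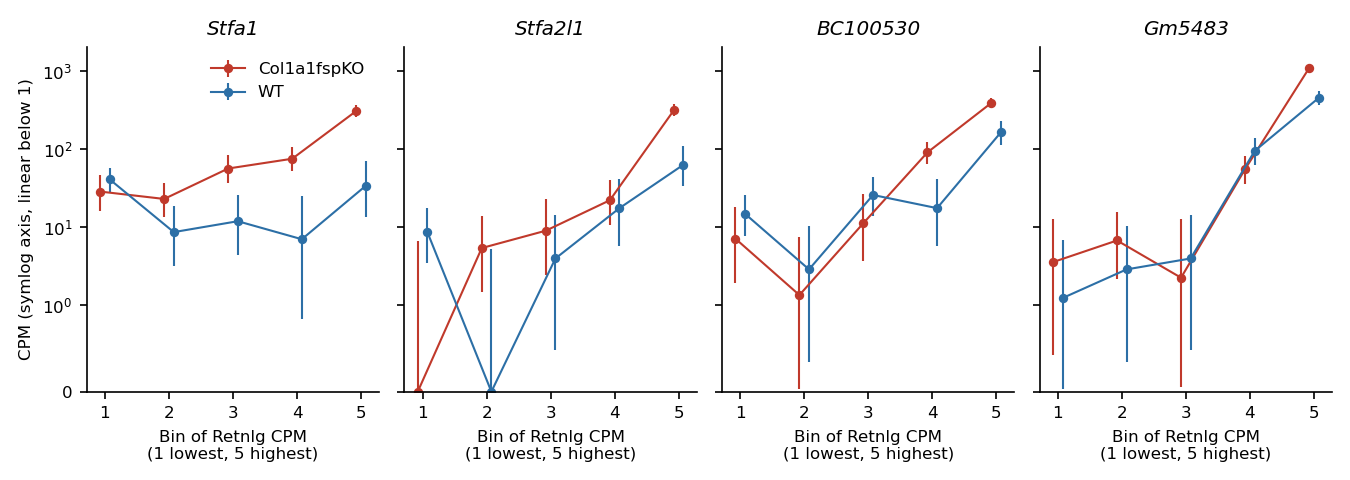
Level of each member in CPM (axis logarithmic above 1 and linear below) over 5 bins of neutrophil-like cells by Retnlg CPM, from the lowest (1) to the highest (5), with Col1a1fspKO in red, WT in blue and 95% Poisson intervals. In bin 5 the red points lie above the blue for all 4 genes, and for Gm5483 in bin 4 the blue point lies above the red (25 UMIs in Col1a1fspKO, 24 of them in 1 cell, and 27 in WT, 23 of them in 1 cell).

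In bin 4, values rested on single cells. The ratio of Stfa1 was 10.7, with 34 UMIs in Col1a1fspKO, 25 of them in 1 cell, and 2 in WT. That of BC100530 was 5.17, with 41 UMIs, 20 of them in 1 cell, and 5. That of Gm5483 was 0.584 (0.325 to 1.05), but 1 Col1a1fspKO cell held 24 of the 25 UMIs and 1 WT cell 23 of the 27, so no direction is read from it. In the lowest bin, which holds the early cells, the summed ratio was 0.599 (0.347 to 1.001), with 16 UMIs of Stfa1 in Col1a1fspKO and 33 in WT.

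Other genes of the locus were listed at low counts. Stfa3 had 48 UMIs in mature Col1a1fspKO cells and 17 in mature WT cells, a ratio of 1.10 (0.623 to 2.05), and all 17 WT UMIs lay in 1 cell. Stfa2 had 27 UMIs in 7 mature Col1a1fspKO cells and 2010005H15Rik had 5 in 3 cells, and neither gene was listed for WT, so no ratio is given. The 12 symbols searched for the locus include second names, such as Cstdc4 and Cstdc5 for members and Csta2 for 2010005H15Rik. Of these symbols only Stfa2, Stfa3 and 2010005H15Rik were listed, and Stfa3 alone reached 50 UMIs in the mature class.

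Of 10 cysteine proteases listed, the class of enzyme that stefins block, 0 reached 50 UMIs in the mature class, so none could be called. Those with most UMIs were higher in Col1a1fspKO, with intervals that include 1: Ctsh (cathepsin H) had 32 UMIs in Col1a1fspKO against 6 in WT, a ratio of 2.08 (0.859 to 6.09). Ctsb (cathepsin B) had 16 and 3, also 2.08 (0.596 to 11.2), and Ctsz (cathepsin Z) 16 and 1, or 6.25 (0.971 to 262). These are few transcripts next to 852 and 119 UMIs of the members. Of the other cystatins, Cstb, the gene of stefin B, had a ratio of 0.942 (0.524 to 1.77) and Cst3, of secreted cystatin C, 0.858 (0.651 to 1.14), and 0 of the 2 with enough UMIs reached 2-fold. Of the serine protease inhibitors 0 of 3 did, with ratios of 0.925 for Slpi, which inhibits neutrophil elastase, 0.675 for Serpinb1a and 1.13 for Wfdc21.

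Over all cells 1 of 9 cysteine proteases with 50 UMIs, 0 of 4 cystatins and 1 of 6 serine protease inhibitors were at least 2-fold higher in Col1a1fspKO. The share over all 9725 genes was 0.648%. The protease was Ctsw, of cytotoxic lymphocytes, with a ratio of 3.04, and the inhibitor was Serpina3g, with 2.17. Both genes had 0 UMIs in mature neutrophil-like cells. Of the late neutrophil genes, 3 of 11 were at least 2-fold higher over all cells: Il1b (2.49), Ly6g (2.24) and Il1f9 (2.09). Of 10 late neutrophil genes with 50 UMIs in the mature class 1 was at least 2-fold higher, Ly6g, a surface antigen of neutrophils, with a ratio of 2.08 (1.70 to 2.55). Retnlg had 1.11, Cxcr2 1.15, Il1f9 1.25, Csf3r 1.21 and Mmp9 1.04. S100a8 had 0.990, S100a9 0.975, Ccl6 0.954 and Mmp8 0.825 (0.734 to 0.929). Apart from Ly6g, the late genes with 50 UMIs thus ranged from 0.825 to 1.25 in this class.

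Mature cells rich in stefin A were compared with mature cells without it, over both libraries. The 30 cells with at least 5 member UMIs and the 91 with none had similar depth, with medians of 3042 and 3125 UMIs. Il1f9 was higher in the rich cells by 1.76-fold (1.195 to 2.57; 1.92-fold within Col1a1fspKO and 1.32-fold, 0.514 to 3.02, within WT) and Csf3r, the receptor of granulocyte colony-stimulating factor, by 1.79-fold (1.04 to 3.03). The chemokine Ccl6 was higher by 1.84-fold (1.45 to 2.33), but by 1.42-fold (1.07 to 1.86) within Col1a1fspKO and 4.12-fold (2.52 to 6.73) within WT. Retnlg was higher by 1.29-fold, while Mmp9 was at 0.783-fold, Wfdc21 at 0.806-fold and Cxcr2 at 0.900-fold (0.553 to 1.42). Over both libraries none of these reached 2-fold. Of the 666 genes outside the locus with 50 UMIs, 11 (1.65%) were at least 2-fold higher and 13 (1.95%) at least 2-fold lower in the rich cells. Of the locus neighbours in Col1a1fspKO, Stfa2 had 19 UMIs in the 24 rich cells and 5 in the 66 cells with none. Stfa3 had 21 and 2 there, but 25 of its 48 UMIs lay in 1 mature cell outside both sets. In WT the 17 UMIs of Stfa3 lay in a cell without members.

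A few cells of other classes also held many member UMIs. A Col1a1fspKO cell named B cells-like had 38 UMIs of Gm5483 and 3 of Stfa2l1. It had 88475 CPM of the neutrophil gene S100a8 and 221 UMIs of Retnlg, against class medians of 1393 CPM and 1 UMI, beside 7 UMIs of Cd79a and Cd79b, where the median was 14. Another B cells-like cell of Col1a1fspKO had 9 UMIs of Gm5483, 7 of BC100530 and 5 of Stfa2l1, with 91081 CPM of S100a8 and 14 UMIs of Cd79a and Cd79b. A WT cell named Mono/Macro-like had 35 UMIs of Gm5483 with 82904 CPM of S100a8 and 184 UMIs of Retnlg. Cells with transcripts of 2 lineages of this kind were kept, since no doublet caller was run, and the cells with 38 and 35 UMIs held most of the Gm5483 of their class, 53 UMIs in B cells-like cells of Col1a1fspKO and 41 in Mono/Macro-like cells of WT.

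Over 30 sums of cells by cluster and library, the genes whose log2(CPM + 10) was most like that of the summed members were Asprv1 (Pearson r 0.931), Fpr1 (0.912), Il1r2 (0.901), 9830107B12Rik (0.898), Ccno (0.893), Il1f9 (0.892), Retnlg (0.891), Mrgpra2a (0.885), Ccdc63 (0.885) and Itgam.1 (0.881), among 9720 genes. Fpr1 is a receptor for formyl peptides and Il1r2 a decoy receptor for interleukin-1. The sums share libraries and cluster definitions, and Asprv1, Il1f9 and Retnlg lead the mature cluster, so the values are a description. Among themselves the members ranged from 0.690 for Stfa1 with Gm5483 to 0.954 for Stfa2l1 with BC100530, and Stfa1 was in the 3 lowest pairs.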

How the data were processed

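sc-RNA-seq was performed on 1 pooled library per genotype. The authors deposited raw UMI counts from Cell Ranger, with genes in rows and cells in columns (version not given in the sources used here; build mm10 in the submitters' processing notes, which also name Seurat 3.5.3). A gene listed in 1 table was taken as 0 in the other and is called not listed there. Member genes and gene lists were chosen with earlier results of these data known.

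Counts of both libraries were merged without integration, log-normalized and clustered in Seurat 5.3.0 (R 4.3.3) with 2000 variable genes, without stefin A genes, 27 principal components, as in the study's methods, and resolution 0.8. A cluster took the class with the highest mean z-score of its markers, but got no name where another class had more markers than its own among the 10 leading genes, or where fewer than 3 of its markers reached 10% of the cells. Stefin A genes were also left out of the leading genes at this step, after they had been seen to fill those of cluster 7. No doublet caller was run.

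UMIs were summed by class and library and divided by the class total (CPM), with exact 95% Poisson intervals in Python 3.11.15 with scipy 1.17.1. Ratios have exact conditional binomial intervals. Ratios were computed for genes with at least 50 UMIs over both libraries, and a call is a ratio of at least 2. UMIs were tagged at the 3′ end of transcripts, so CPM values are not divided by length. For fair shares, each cell was thinned to 2500 UMIs, and 0 cells were too shallow. The named genes are the members, locus genes, cystatins, cysteine proteases, serine protease inhibitors and late neutrophil genes of fixed lists, and the 10 genes most like the summed members. On counts simulated for the mature class, 200 of 791 genes were given set ratios, and 96.0% of these ratios fell inside the computed interval. The counts were drawn from a Poisson distribution, which the interval assumes, without the uneven spread over cells that the members showed. This check covers the computation alone and cannot tell how well the intervals hold for such patchy genes. Gene positions come from GENCODE M21 and promoters from RefSeq (GRCm38.p6). The alternatives were resolutions of 0.4 and 1.2, 15 principal components, clustering with stefin A genes, CCA integration, a shared minimum of 2909 UMIs, thinned cells, CPM without the 20 most abundant genes, means of single-cell CPM and the removal of the richest cell. Removal of the 5 richest cells and other unions of classes were chosen after seeing the data. Sequences of the proteins and the Seurat objects of the study were not used here.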

Additional observations from a re-analysis of the deposited data

How the results depend on the processing

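The 82 alternatives cover log2 ratios and percentages, and a percentage cannot fall below 0. All log2 ratios of Col1a1fspKO over WT stayed above 0. Of the 82 values of both kinds, 59 stayed inside the counting interval of the main value. In the mature class the summed log2 ratio of 1.48 became 2.03 with CCA integration, 1.81 with the maturing class added, 2.11 without the richest cell of each library and 3.10 without the 5 richest. Stfa1 went from 2.85 to 4.70 without the richest cells. BC100530 went from 1.80 to 0.78 with 15 principal components, 0.95 with stefin A genes in the clustering and 3.32 without the richest cells. Gm5483 went from 1.04 to 1.68 with CCA, 1.48 with the maturing class added, 2.25 without the richest cells and 6.21 without the 5 richest. Over all cells 1.85 became 2.17 as a mean of single-cell CPM, 1.35 with the shared UMI minimum, 2.23 in thinned cells, 2.13 without the 5 richest cells and 0.76 without the mature class. The positive share of mature Col1a1fspKO cells was 53.7% with CCA (54 cells in the class). The percent of Col1a1fspKO member UMIs in that class was 76.4% with stefin A genes in the clustering, 60.0% with CCA, 63.3% with the shared minimum and 83.7% in thinned cells, and that of WT was 60.9% in thinned cells. The removals take out a large part of the few WT UMIs. For the other settings the cause was not tested. Without the 5 richest cells no value could be had for Stfa1, Stfa2l1 and BC100530, since no WT UMI was left, and at resolution 0.4 no cluster was named mature. No paired analysis was possible because each genotype has 1 library. The WT mature class, with 39 cells and 119 member UMIs, limits every ratio, and counting intervals leave out the spread between cells and between mice.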
